A study of Arabidopsis thaliana with 20 samples.

Results

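The genes described are the Arabidopsis beta-glucosidase genes BGLU33 (AT2G32860), BGLU47 (AT4G21760) and BGLU44 (AT3G18080). They were taken as every probe set that the array's probe-to-gene table names BGLU33, BGLU44 or BGLU47, which gave 3 probe sets, 1 for each gene, of 22746 analysed. BGLU33 and BGLU47 were chosen by their signals in ckh2-1, which were higher with 200 ng/ml kinetin than without. For these genes, every comparison that uses the ckh2-1 arrays without kinetin or with 200 ng/ml kinetin is therefore given as a description with no test. The comparison that led to BGLU44 is not recorded, and since its signals stand apart in ckh1-1, all comparisons of ckh1-1 are given for it as descriptions only.

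Beta-glucosidases of glycoside hydrolase family 1 split glucose, or a related sugar, from small molecules that plants store as glycosides. In Arabidopsis they are known for releasing hormones, defence compounds and lignin precursors from inactive conjugates. BGLU33, also called BG2, is a vacuolar enzyme that releases abscisic acid from its glucose ester. BGLU47 belongs to the same subfamily as BGLU45 and BGLU46, which act on glucosides of the monolignols, the building blocks of lignin. BGLU44 is known for a preference for mannosides in vitro.

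RNA was measured on 20 Affymetrix arrays, 2 for each of 10 groups. The tissue was hypocotyl segments cut from seedlings raised for 10 days in dim light. All segments then spent 3 days under continuous light on callus induction medium, which held the synthetic auxin 2,4-D at 100 ng/ml in every group. The wild type was Ler, and the mutants were ckh1-1 and ckh2-1. Each genotype received the cytokinin kinetin at 0, 25 or 200 ng/ml. A further wild type group received TSA at 100 ng/ml, with no kinetin named in its labels; TSA is trichostatin A, which inhibits histone deacetylases. CKH1 and CKH2 are known from mutants that are hypersensitive to cytokinin in culture; CKH2 encodes the chromatin remodeller PICKLE and CKH1 a factor associated with the TATA-binding protein. Their own transcripts are not analysed here. The labels do not say whether replicates came from separate cultures, so p-values measure the spread between these arrays, which may be technical. That spread includes a difference in scale between replicate numbers, given below.

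The arrays carry MAS5 signals, a linear brightness per probe set. Signals of replicate 1 arrays were on a scale 1.31 times that of replicate 2 arrays (trimmed means of 310.9 and 236.9), so changes are also given within each replicate number. The fit did not rescale the arrays, so this difference in scale is part of the spread behind every SE and p-value. With arrays rescaled to a common trimmed mean, 1374 instead of 474 probe sets were called for 200 ng/ml in wild type. Calls missed as deposited and shares of probe sets called thus depend in part on the scaling. Fold changes are on the scale of log2(signal + 27.39), which understates changes of dim probe sets. All 3 probe sets were among the 15469 tested, those whose group mean lay above a signal of about 66.5 in at least 1 group. BGLU33 exceeded that signal on 5 of 20 arrays, BGLU47 on 8 and BGLU44 on 18. BGLU33 and BGLU47 thus entered the test only through the groups where they were high. Signals of different probe sets are not compared with each other. Fewer cells of a type and less RNA per cell cannot be told apart in such samples.

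**Figure D1:**
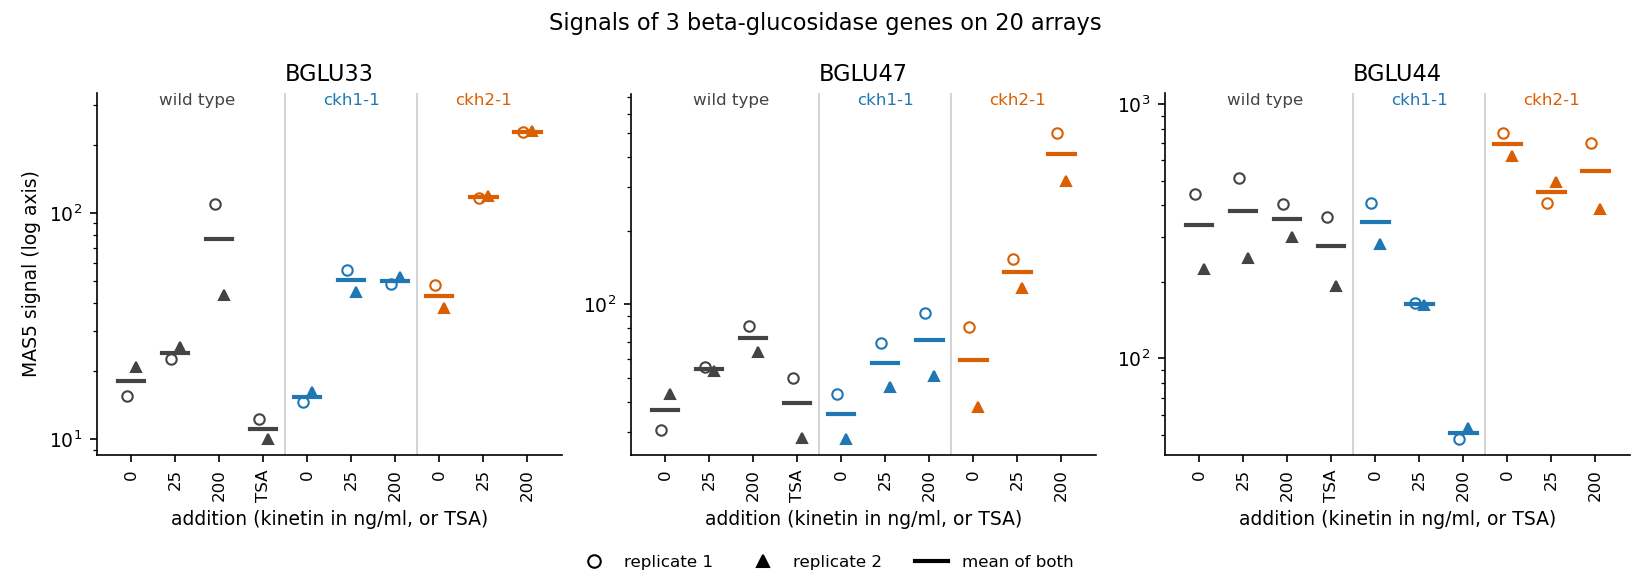
MAS5 signals (log axis) of BGLU33, BGLU47 and BGLU44 on the 20 arrays, by genotype and addition (kinetin in ng/ml, or TSA); circles are replicate 1, triangles replicate 2 and bars the mean of both. BGLU33 and BGLU47 have their highest signals in ckh2-1 with 200 ng/ml kinetin, and BGLU44 has its lowest in ckh1-1 with 200 ng/ml.

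BGLU33, the vacuolar enzyme that frees abscisic acid, was dim in untreated wild type and higher with 200 ng/ml kinetin. In wild type its signals on the replicate 1 and 2 arrays were 15.5 and 20.8 without kinetin, 22.7 and 25.7 with 25 ng/ml, and 110 and 43.3 with 200 ng/ml. The groups did not overlap, and the replicate 1 array at 200 ng/ml stood 2.54 times above its partner. In ckh1-1 the signals were 14.6 and 16.3 without kinetin, 55.9 and 45.0 with 25 ng/ml, and 48.5 and 52.1 with 200 ng/ml. Here the low dose already reached the level of the high dose, the arrays of both doses overlapping with each other and lying above the arrays without kinetin. In ckh2-1 the signals were 48.1 and 38.0, then 116 and 118, then 227 and 230 at the same doses. These 3 groups were separate, each higher dose above the lower.

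Compared between groups that its choice did not use, BGLU33 rose by 1.12 ± 0.25 (log2 fold change ± SE) in wild type with 200 ng/ml kinetin (adjusted p = 0.0154 by limma with Benjamini-Hochberg adjustment). In that comparison 3.06% of all tested probe sets passed in either direction. The SE came from 1 fit of all 20 arrays, those of the choice included, so the test was not fully independent of the choice. BGLU33 also passed the filter only through wild type at 200 ng/ml and ckh2-1 at 25 and 200 ng/ml. The wild type change was 1.68 among replicate 1 arrays and 0.55 among replicate 2 arrays. Without the replicate 1 array at 200 ng/ml it was 0.64 (adjusted p = 0.401), and without the replicate 1 array at 0 it was 1.03 (adjusted p = 0.159). In ckh1-1 it rose by 0.86 ± 0.25 with 200 ng/ml (limma adjusted p = 0.0304), where 11% of probe sets passed, and by 0.85 and 0.87 within replicate numbers. That call was lost when any of the 4 arrays was left out (adjusted p from 0.103 to 0.152). Averaged over wild type and ckh1-1, a comparison chosen after seeing the data, the rise with 200 ng/ml was 0.99 ± 0.18 (limma adjusted p = 0.000515), with 13% of probe sets called, and all 4 arrays at 200 ng/ml lay above all 4 without kinetin. This averaged call was kept under all 21 alternatives run, with values from 0.75 to 1.67. With a pseudocount of 2.74, which shrinks dim signals less, the rises were 1.80 in wild type and 1.55 in ckh1-1.

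The low dose gave BGLU33 changes that missed the threshold in wild type and ckh1-1, and no call is given for kinetin within ckh2-1. At 25 ng/ml the log2 fold change was 0.18 ± 0.25 in wild type (limma adjusted p = 1.00), where 0% of probe sets passed and 243 of 15469 had an unadjusted p under 0.05. In ckh1-1 it was 0.86 ± 0.25 (limma adjusted p = 0.0947, 1.93% of probe sets called), and it passed with quantile normalization (0.86, limma adjusted p = 0.0242), rescaled arrays (0.86, 0.0326) or a smaller pseudocount of 2.74 (1.54, 0.0415). Averaged over both genotypes, again a comparison chosen after seeing the data, it was 0.52 ± 0.18 (limma adjusted p = 0.250, 1.22% called), although all 4 arrays at 25 ng/ml lay above all 4 without kinetin. In ckh2-1, where the arrays without kinetin belonged to the choice, the difference was 1.04 ± 0.25 at 25 ng/ml and 1.86 ± 0.25 at 200 ng/ml. As raw signal, the ckh2-1 means were 2.72 times higher at 25 ng/ml and 5.31 times higher at 200 ng/ml than without kinetin.

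BGLU33 was also higher in ckh2-1 than in wild type at 25 ng/ml kinetin, the dose at which neither group was used to pick it. The signals there were 116 and 118 in ckh2-1 against 22.7 and 25.7 in wild type. The groups were separate, and the mean signal was 4.84 times higher in the mutant. The log2 difference was 1.49 ± 0.25 (limma adjusted p = 0.00228), with 2.01% of all probe sets called, and it was 1.52 and 1.46 within the replicate numbers. It stayed called under all 13 alternatives. The SE again came from all 20 arrays, and ckh2-1 at 25 ng/ml was among the groups through which BGLU33 entered the test. At 0 and 200 ng/ml, where the ckh2-1 arrays belonged to the choice, the differences were 0.63 ± 0.25 and 1.38 ± 0.25. In ckh1-1 against wild type the differences were -0.09 ± 0.25, 0.59 ± 0.25 and -0.34 ± 0.25 at 0, 25 and 200 ng/ml, and none passed the limma test (adjusted p = 1.00, 0.364 and 0.764, 1 of the 3 with an unadjusted p under 0.05, with 2.72%, 2.33% and 4.29% of probe sets called). Whether the response to 25 ng/ml differed between ckh1-1 and wild type was tested as an interaction, which gave 0.68 ± 0.36 (limma adjusted p = 1.00, 0.00646% called).

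In the order of mean BGLU33 signals, ckh2-1 at 200 ng/ml (229 ± 2.32; SD, n = 2 here and for the other means) came before ckh2-1 at 25 ng/ml (117 ± 1.56), and these neighbours did not overlap. Wild type at 200 ng/ml (76.6 ± 47.0) and ckh1-1 at 25 ng/ml (50.4 ± 7.72) and 200 ng/ml (50.3 ± 2.58) followed, each overlapping with the next. Then came ckh2-1 without kinetin (43.1 ± 7.09) and wild type at 25 ng/ml (24.2 ± 2.12), each separate from its neighbours. Wild type (18.2 ± 3.77) and ckh1-1 (15.4 ± 1.18) without kinetin overlapped, and wild type with TSA was lowest (11.2 ± 1.59).

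BGLU47, of the monolignol glucosidase subfamily, had a higher mean signal at each higher kinetin dose in each genotype. In wild type its signals were 30.8 and 43.0 without kinetin, 55.4 and 53.4 with 25 ng/ml, and 81.7 and 63.7 with 200 ng/ml. In ckh1-1 they were 42.9 and 28.1, then 69.4 and 45.9, then 92.4 and 51.0 at the same doses. The doses were separate in wild type, whereas in ckh1-1 the arrays at 25 and 200 ng/ml overlapped and only the arrays without kinetin lay below both. In ckh2-1 the signals were 81.0 and 37.9, then 154 and 116, then 502 and 319. These 3 groups were separate, and the highest signal of any other group was 92.4.

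When arrays of the same replicate number, which share a scale, were followed from 0 to 25 to 200 ng/ml, BGLU47 was higher at both steps in 4 of 4 series of wild type and ckh1-1. Of all tested probe sets, 3.94% did so. BGLU33 was higher at both steps in 3 of these 4 series, and 10.9% of probe sets did so in at least 3. The exception was the replicate 1 series of ckh1-1, in which the signal was 55.9 at 25 ng/ml and 48.5 at 200 ng/ml. Both genes were also higher at both steps in both series of ckh2-1, which belonged to the choice.

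BGLU47 changes with kinetin in wild type and ckh1-1 missed the threshold on the arrays as deposited, and no call is given for kinetin within ckh2-1. With 200 ng/ml kinetin the log2 fold change was 0.64 ± 0.30 in wild type (limma adjusted p = 0.418) and 0.63 ± 0.30 in ckh1-1 (limma adjusted p = 0.213). Within replicate numbers 1 and 2 the change was 0.91 and 0.37 in wild type and 0.77 and 0.50 in ckh1-1. With quantile normalization both passed (0.65 and 0.78, limma adjusted p = 0.0401 and 0.00626), and with rescaled arrays ckh1-1 did (0.63, limma adjusted p = 0.0305). Averaged over both it was 0.64 ± 0.21 and just missed the threshold (limma adjusted p = 0.0512). All 4 arrays at 200 ng/ml lay above all 4 without kinetin, and the change was 0.84 among replicate 1 arrays and 0.44 among replicate 2 arrays. The averaged call depended on how the arrays were scaled, since with quantile normalization it was 0.71 ± 0.13 (limma adjusted p = 0.000762) and with all arrays rescaled to a common trimmed mean 0.63 ± 0.14 (limma adjusted p = 0.00375). At 25 ng/ml the average was 0.39 ± 0.21 (limma adjusted p = 0.782). In ckh2-1, as a description, BGLU47 differed by 0.94 ± 0.30 at 25 ng/ml and by 2.35 ± 0.30 at 200 ng/ml, and the raw signal at 200 ng/ml was 6.20 and 8.41 times that without kinetin in replicates 1 and 2.

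BGLU47 in ckh2-1 at 25 ng/ml kinetin lay above wild type at the same dose, with signals of 154 and 116 against 55.4 and 53.4. The groups were separate, but the log2 difference of 0.98 ± 0.30 missed the threshold (limma adjusted p = 0.119). It passed with quantile normalization (0.96 ± 0.19, limma adjusted p = 0.00562) and with rescaled arrays (0.98 ± 0.20, limma adjusted p = 0.00851). At 200 ng/ml, as a description, the signal in ckh2-1 was 6.15 and 5.01 times that of wild type in replicates 1 and 2. Without kinetin it was 0.40 ± 0.30, with the ckh2-1 array above wild type in replicate 1 and below it in replicate 2. Against wild type, ckh1-1 differed by -0.03, 0.04 and -0.04 (each ± 0.30) at 0, 25 and 200 ng/ml, and the 95% interval at 200 ng/ml ran from -0.66 to 0.58. By mean signal, ckh2-1 at 200 ng/ml (411 ± 130; SD, n = 2) and at 25 ng/ml (135 ± 26.6) were each separate from the next group. The other groups ran from wild type at 200 ng/ml (72.7 ± 12.7) to ckh1-1 without kinetin (35.5 ± 10.5). Among these, the only neighbours that did not overlap were wild type at 25 ng/ml (54.4 ± 1.47) and wild type with TSA (39.4 ± 15.3).

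**Figure D2:**
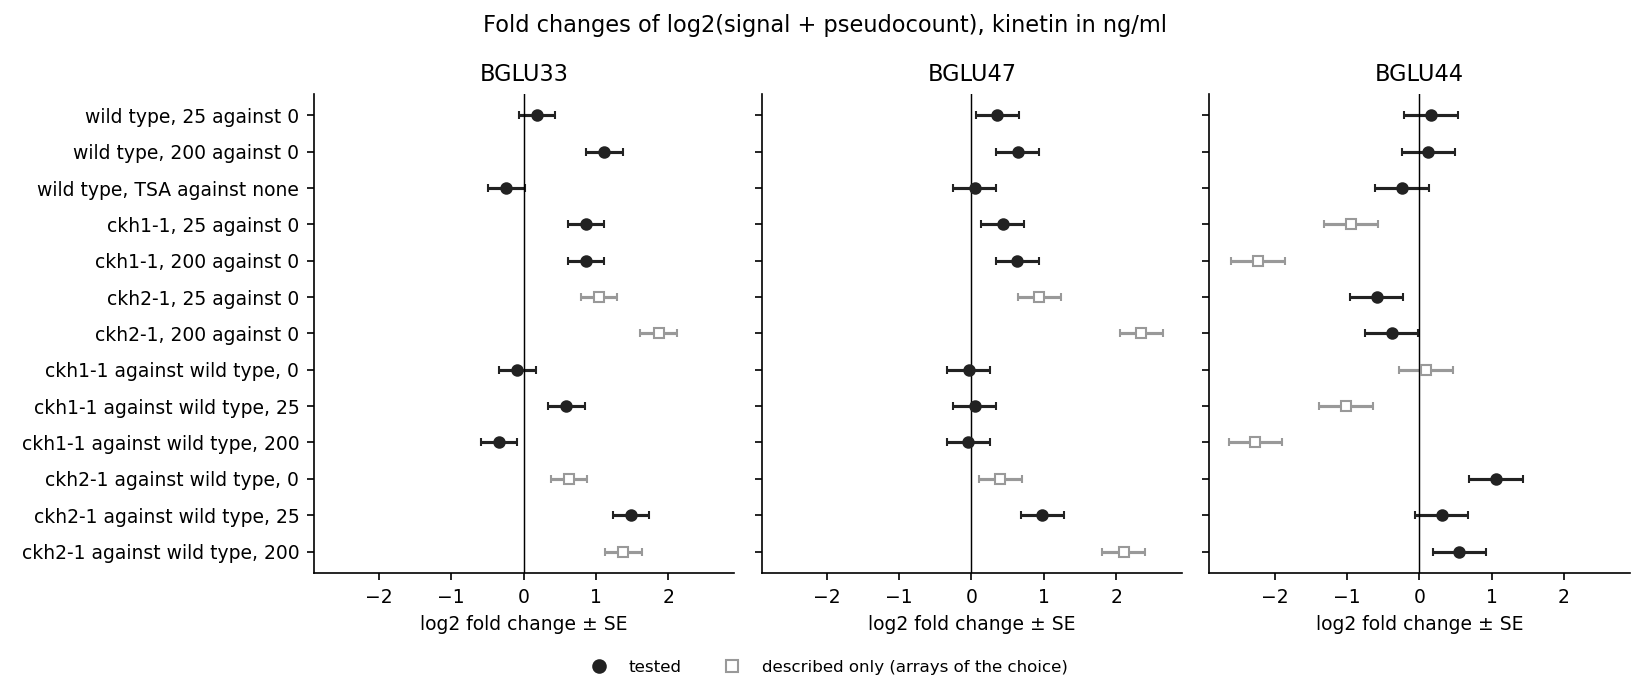
Log2 fold changes (± SE) of BGLU33, BGLU47 and BGLU44 for kinetin or TSA within a genotype and for each mutant against wild type at 0, 25 and 200 ng/ml kinetin; filled circles are tested comparisons and open squares those that use arrays of the choice. BGLU44 lies at -2.23 in ckh1-1 with 200 ng/ml kinetin against none, while BGLU33 and BGLU47 lie to the right of 0 there, at 0.86 and 0.63.

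BGLU44, which prefers mannosides, was lower with kinetin in ckh1-1, opposite in direction to BGLU33 and BGLU47 there. Its signals in ckh1-1 were 407 and 282 without kinetin, 166 and 161 with 25 ng/ml, and 48.1 and 53.5 with 200 ng/ml. The 3 groups were separate, and the lower level at each dose appeared in both replicates; 20.8% of all probe sets were lower at both steps in both series of ckh1-1. As a description, the log2 differences from no kinetin were -0.94 ± 0.37 at 25 ng/ml and -2.23 ± 0.37 at 200 ng/ml, and the mean signal at 200 ng/ml was 6.78 times lower. Against wild type at 200 ng/ml the difference was -2.27 ± 0.37, and at 25 ng/ml it was -1.01 ± 0.37. The response to 200 ng/ml in ckh1-1 minus that in wild type was -2.36 ± 0.52, again as a description; 1.22% of all probe sets passed in that interaction.

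In wild type the BGLU44 signals were 444 and 224 without kinetin, 512 and 248 with 25 ng/ml, and 404 and 300 with 200 ng/ml. The 3 groups overlapped, and each replicate 1 array was above its partner by 1.35 to 2.06 times. In ckh2-1 the signals were 766 and 624, then 410 and 494, then 705 and 388. Only the arrays at 25 ng/ml were separate from those without kinetin, below them. With 200 ng/ml kinetin the log2 fold change was 0.13 ± 0.37 in wild type (limma adjusted p = 1.00) and -0.38 ± 0.37 in ckh2-1 (limma adjusted p = 0.710), where 8.27% of probe sets passed. Averaged over wild type and ckh2-1, a comparison chosen after seeing the data, it was -0.13 ± 0.26 (limma adjusted p = 0.854), with a 95% interval from -0.67 to 0.42, and 11.5% of probe sets passed. That sign turned when the replicate 1 array of wild type without kinetin was left out (0.10) or the replicate 2 array of ckh2-1 at 200 ng/ml (0.08). For each dose step in ckh2-1, 25 ng/ml gave -0.59 ± 0.37 against none (limma adjusted p = 1.00, 0.0905% called).

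The difference in BGLU44 between ckh2-1 and wild type over 3 kinetin levels was 0.64 ± 0.21. It missed the threshold on the arrays as deposited (limma adjusted p = 0.0648, with 9.98% of probe sets passing). It was 0.40 among replicate 1 arrays and 0.88 among replicate 2 arrays. With quantile normalization it was 0.66 ± 0.15 and passed (limma adjusted p = 0.00414). It also passed with rescaled arrays (0.64), so the call depended on how the arrays were scaled. Without kinetin alone, ckh2-1 lay above wild type on both arrays, by 1.06 ± 0.37 (limma adjusted p = 0.194, 2.39% called), and this passed with quantile normalization (1.08, limma adjusted p = 0.0175) or rescaled arrays (1.07, 0.0184). In the order of mean signals only ckh1-1 at 25 ng/ml (164 ± 2.86; SD, n = 2) and at 200 ng/ml (50.8 ± 3.82) were separate from their neighbours. The other 8 groups ran from 276 ± 118 (wild type with TSA) to 695 ± 100.4 (ckh2-1 without kinetin), each overlapping with the next.

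TSA, the histone deacetylase inhibitor, left none of the 3 genes past the limma threshold in wild type, and 0 of the 3 had an unadjusted p under 0.05. In that comparison 11% of all probe sets were called. BGLU33 had signals of 12.3 and 10.0 with TSA against 15.5 and 20.8 without, both below, and its log2 fold change was -0.24 ± 0.25 (limma adjusted p = 0.630). BGLU47 had 50.2 and 28.6 against 30.8 and 43.0, overlapping, and a change of 0.04 ± 0.30 whose sign turned with the scaling (-0.06 with quantile normalization; limma adjusted p = 0.956 as reported). BGLU44 had 360 and 192 against 444 and 224, overlapping, and a change of -0.24 ± 0.37 (limma adjusted p = 0.762). The 95% intervals ran from -0.76 to 0.29, -0.58 to 0.66 and -1.01 to 0.53.

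**Figure D3:**
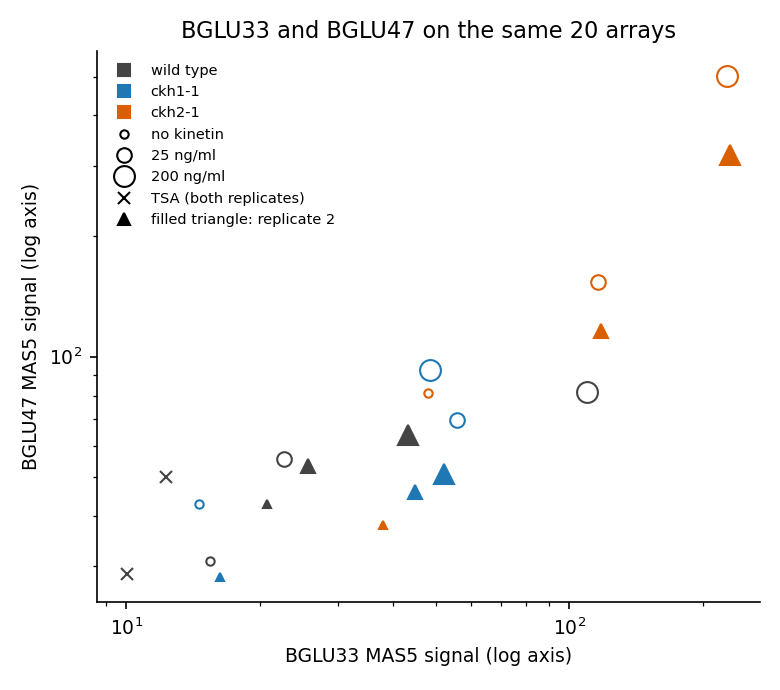
BGLU47 signal against BGLU33 signal on each of the 20 arrays (both axes log), with colour for genotype, marker size for kinetin dose, crosses for TSA and filled triangles for replicate 2. The ckh2-1 arrays with 25 and 200 ng/ml kinetin lie at the upper right, beyond a signal of 116 for both genes.

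Across the 10 group means of the log2 values, BGLU33 and BGLU47 varied together, with a Pearson correlation of 0.95 (Spearman 0.96, n = 10 groups). Both genes were chosen for being higher in ckh2-1 at 200 than at 0 ng/ml, so part of this likeness was set by the choice. Without these groups of ckh2-1 the Pearson correlation was 0.95 and Spearman's 0.93 (n = 8). The points share genotypes, doses and array scale, so they are not independent. BGLU44 correlated with BGLU33 at 0.22 and with BGLU47 at 0.27, and without the same groups at -0.02 and 0.05.

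Among tested probe sets of exactly 1 gene, the 5 most like BGLU33 by Pearson correlation over the 10 group means were AT1G71980 (0.95), PRK (0.95), AT4G38640 (0.95), BGLU47 (0.95) and AT3G47070 (0.95). PRK is phosphoribulokinase, an enzyme of the Calvin cycle, and its mean signals ran from 42.5 in wild type with TSA to 254 in ckh2-1 at 200 ng/ml. Those most like BGLU47 were PRK (0.97), AT3G14360 (0.95), BGLU33 (0.95), AT1G66430 (0.94) and AT2G36145 (0.94). AT2G36145 entered the test only through ckh2-1 at 200 ng/ml, a group of the choice. Its mean signal was 87.9 there and at most 24.9 in any other group. Each of BGLU33 and BGLU47 stands in the other's list, and the ranking includes the ckh2-1 groups by which both were chosen. For BGLU44 the most alike were AT1G12320 (0.94), AT3G01690 (0.91), AT3G54290 (0.90), AT1G14910 (0.90) and AT1G53800 (0.88). AT1G12320 had mean signals of 64.9 in ckh1-1 at 200 ng/ml and 135 in ckh1-1 without kinetin. Of these 15 pairs, 9 stayed among the 5 most alike after quantile normalization and 2 by Spearman rank.

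**Figure D4:**
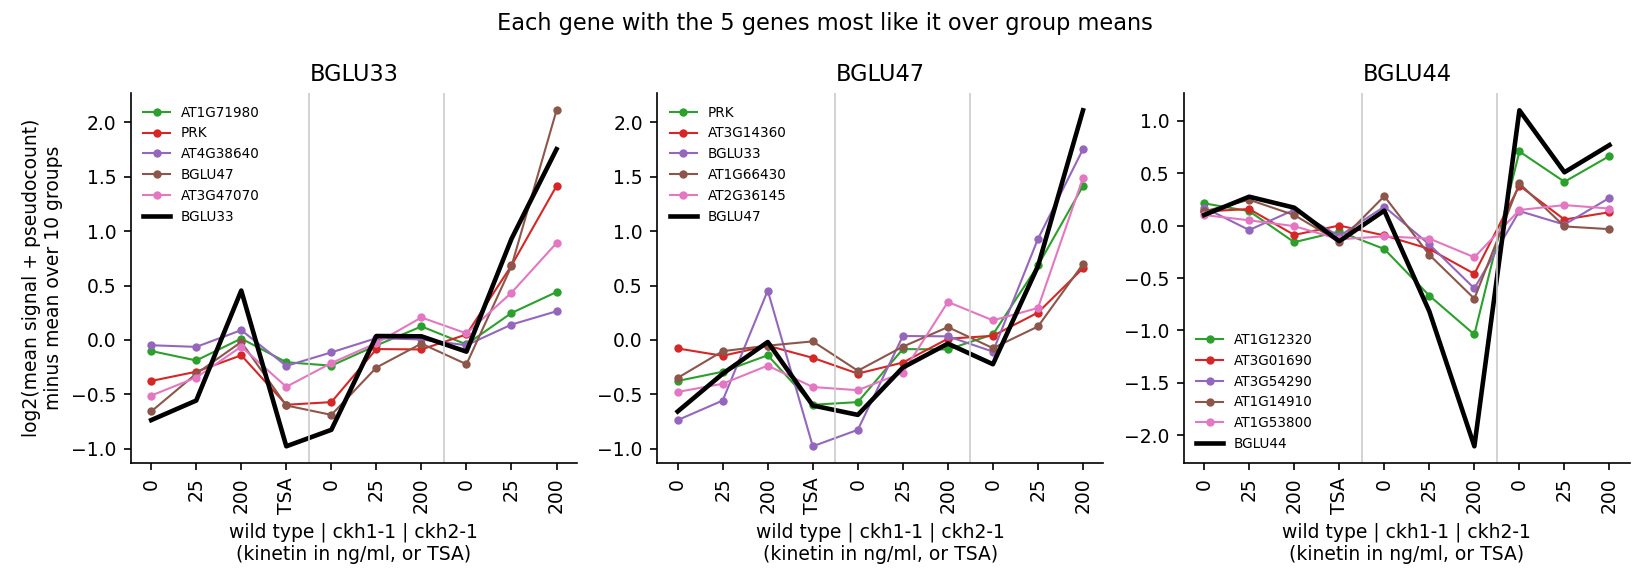
Log2(mean signal + 27.39) of BGLU33, BGLU47 and BGLU44 (thick lines) and of the 5 genes most like each (thin lines) in the 10 groups, each minus its mean over the groups. The thick lines for BGLU33 and BGLU47 and the line for PRK all peak in ckh2-1 at 200 ng/ml, and the lines beside BGLU44 are all lowest in ckh1-1 at 200 ng/ml.

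The beta-glucosidase family had 22 probe sets of a single gene on the array, the 3 genes included, and 13 of them were tested. The other 9 reached a signal of at most 79.9 on any array. With 200 against 0 ng/ml kinetin averaged over 3 genotypes, none of the 10 other tested members passed by limma on the arrays as deposited, and 2 had an unadjusted p under 0.05. Their median log2 fold change was 0.04, beside -0.05 over all tested probe sets, 19.8% of which passed. The family count depended on how the arrays were scaled. Of the 13 tested, the 3 genes included, 2 were higher as deposited and 5 with quantile normalization or rescaled arrays. BGLU45 and BGLU46, the monolignol glucosidases nearest to BGLU47, had signals from 9.85 to 107 and from 80.9 to 278. BGLU45 rose in ckh1-1 against wild type over 3 levels, by 0.62 (limma adjusted p = 0.0386, 9.96% called), a call lost in 8 of 29 alternatives. BGLU45 exceeded the filter signal only in wild type with TSA, a group outside that comparison. BGLU46 passed in none of the 27 comparisons by limma, with an unadjusted p under 0.05 in 1. BGLU43, next to BGLU44 among the protein-coding genes of the RefSeq table of TAIR10.1, had signals of at most 26.8 and was not tested. PYK10, the abundant beta-glucosidase of endoplasmic reticulum bodies, had signals from 5850 to 10859. On the arrays as deposited it passed in no comparison by limma, with an unadjusted p under 0.05 in 0 of 27.

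Of the 10 other tested members of the family, 1 was called with TSA, beside 11% of all probe sets. Against wild type over 3 levels, 1 was higher and 2 were lower in each of ckh1-1 and ckh2-1. In these comparisons 9.96% and 9.98% of all probe sets passed. BGLU40 rose with TSA, from 50.1 and 45.8 to 218 and 134, by 1.40 (limma adjusted p = 0.00111). BGLU40 entered the test only through that TSA group, ckh1-1 at 25 ng/ml and ckh2-1 at 25 and 200 ng/ml. It also rose in ckh2-1 with 200 ng/ml kinetin, by 0.86 (limma adjusted p = 0.0454, 8.27% called), a call lost in 8 of 13 alternatives. BGLU19 fell in ckh1-1 against wild type over 3 levels, by 1.28 (limma adjusted p = 0.000776), and its signals without kinetin were 4.43 and 4.69 in ckh1-1 against 86.2 and 63.2 in wild type. No ckh1-1 group of BGLU19 exceeded the filter signal. BGLU16 also fell in ckh1-1 over 3 levels, by 0.71 (limma adjusted p = 0.0259; lost in 6 of 29 alternatives). In ckh2-1 against wild type over 3 levels, BGLU25 fell by 0.80 (limma adjusted p = 0.00955), while BGLU40 rose by 0.62. BGLU28 fell by 0.65 in that comparison (limma adjusted p = 0.0185, lost in 6 of 29 alternatives). BGLU28 exceeded the filter signal only in wild type with TSA, and its ckh2-1 means ran from 11.7 to 18.3.

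A further probe set, which the name table assigns to 2 genes of the family and which is therefore not named, fell far more steeply. Its signals were 5580 and 3997 in wild type without kinetin, and 2058 and 2487 with 200 ng/ml. In ckh1-1 they were 4318 and 3704 without kinetin and 180 and 116 with 200 ng/ml, and in ckh2-1 they were 2929 and 2796 and then 261 and 169. The groups were separate in each genotype. The log2 fold change with 200 ng/ml was -4.55 in ckh1-1 and -3.60 in ckh2-1, and with TSA in wild type it was -1.81; all 3 were called by limma under all 13 alternatives each. Its response to 200 ng/ml differed from that of wild type in ckh2-1 as well as in ckh1-1 (interactions of -2.55 ± 0.41 and -3.49 ± 0.41, limma adjusted p = 0.00500 and 5.51e-05), and 0.362% of probe sets passed in the ckh2-1 interaction.

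**Figure D5:**
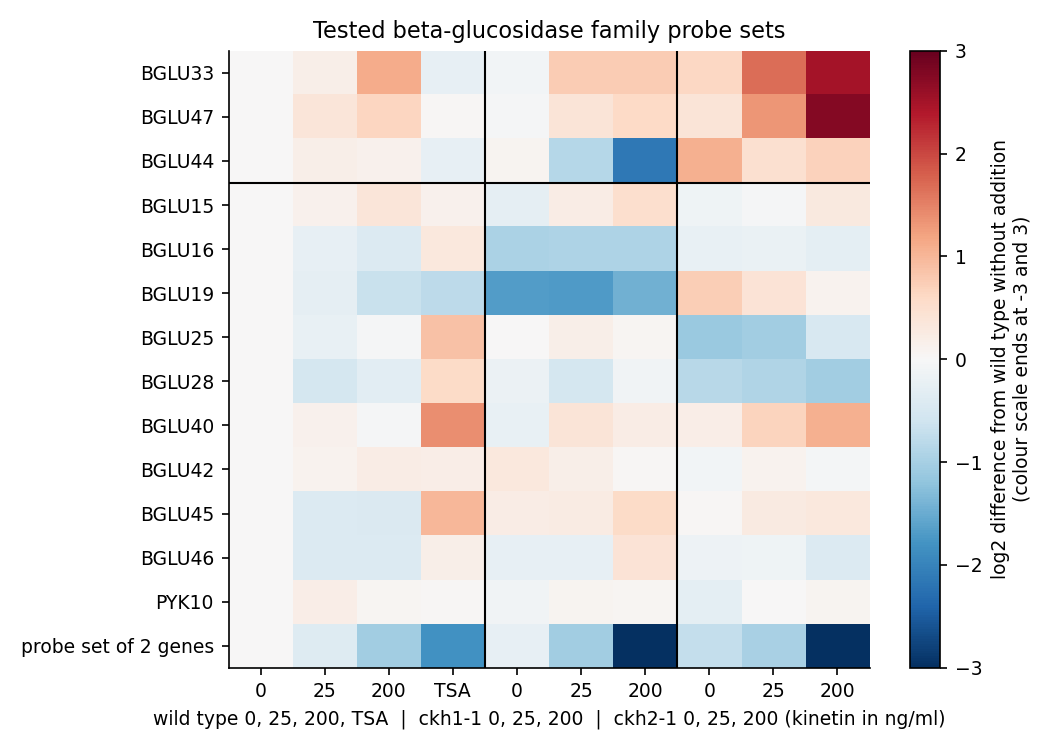
Mean log2 difference from wild type without addition (colour, from -3 to 3) for the 13 tested single-gene probe sets of the beta-glucosidase family and the probe set of 2 genes, in the 10 groups. Darkest red are BGLU47 and BGLU33 in ckh2-1 with 200 ng/ml kinetin, and darkest blue is the probe set of 2 genes with 200 ng/ml in ckh1-1 and ckh2-1.

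Genes that make, polymerise or glucosylate monolignols, or regulate lignin formation, were followed in a list of 32 entries. Monolignols are the products that enzymes like BGLU45 release from storage. Of the entries, 8 had a probe set of their own and 7 were tested, glucosyltransferases among them. With 200 against 0 ng/ml kinetin over 3 genotypes, 2 of the 7 rose by limma and none fell, while 1 was lower at an unadjusted p under 0.05; 19.8% of all probe sets passed in that comparison. HCT, an acyltransferase of monolignol synthesis, rose by 0.59 ± 0.19 (limma adjusted p = 0.0295; lost in 7 of 29 alternatives). AT5G66390, the lignin peroxidase PRX72, rose by 1.13 ± 0.18 (limma adjusted p = 9.53e-05), and it entered the test only through ckh1-1 at 25 and 200 ng/ml and wild type with TSA. The median change of the 7 was 0.15, beside -0.05 over all probe sets. In ckh2-1 against wild type over 3 levels, 1 of the 7 rose by limma and none fell, with 3 higher and 1 lower at an unadjusted p under 0.05, and a median of 0.38 beside -0.02, where 9.98% of probe sets passed. That gene was UGT72E1, which glucosylates monolignols and related aldehydes, with 1.19 ± 0.19 (limma adjusted p = 0.000171). It exceeded the filter signal only in the 3 ckh2-1 groups, so it entered the test through the group in which it was higher. At 25 ng/ml its signals were 233 and 174 in ckh2-1 against 70.3 and 48.5 in wild type. In ckh1-1 against wild type 2 of the 7 rose and 1 fell, where 9.96% of probe sets passed. With TSA 1 rose, AT5G66390 by 2.71 ± 0.32 (limma adjusted p = 1.09e-05), where 11% passed.

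All 3 measured genes of secondary wall and xylem, of 17 listed, rose with 200 ng/ml kinetin over 3 genotypes, with a median of 1.47 beside -0.05 over all probe sets, 19.8% of which passed. These were IRX15 (1.47 ± 0.15) and IRX15-L (1.48 ± 0.14), needed for normal xylan, and GUT2 (0.68 ± 0.14), a xylan glycosyltransferase also called IRX10 (limma adjusted p from 7.59e-08 to 0.000925). IRX15 exceeded the filter signal only in the 3 groups with 200 ng/ml, and so entered the test through the groups in which it was high. In ckh2-1 against wild type none of the 3 passed by limma, 1 had an unadjusted p under 0.05, and the median was -0.27. The vessel and fibre genes CESA4, IRX3, IRX1, XCP1, XCP2 and VND7 were not analysed here.

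Of genes for abscisic acid conjugation, formation and breakdown, 3 of 15 had a probe set and 2 were tested, BGLU33 itself and UGT71C5. UGT71C5, which makes the glucose ester that BGLU33 splits, changed by -0.16 ± 0.22 with 200 ng/ml kinetin over 3 genotypes (limma adjusted p = 0.674) and by -0.07 ± 0.22 in ckh2-1 against wild type over 3 levels (limma adjusted p = 0.950). Of 14 genes of mannan formation and breakdown, only CSLA03, a mannan synthase-like gene, was measured. It changed by 0.34 ± 0.18 with 200 ng/ml kinetin (limma adjusted p = 0.224), and its signals in ckh1-1 at 200 ng/ml were 256 and 176, above the 111 and 93.0 without kinetin.

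Markers of the cytokinin response and of other cell types moved in the same comparisons. With 200 ng/ml kinetin over 3 genotypes 19.8% of all probe sets passed, and in ckh2-1 against wild type over 3 levels 9.98%. Of 20 genes of cytokinin glucosides and type-A regulators, 3 were tested; ARR15, a type-A response regulator, rose by 1.87 ± 0.21 with 200 ng/ml kinetin over 3 genotypes (limma adjusted p = 1.01e-06), and UGT76C2, which glucosylates cytokinins, fell by 0.89. ARR15, too, exceeded the filter signal only in the 3 groups with 200 ng/ml. Of 9 callus and lateral root factors 3 were tested, and LBD16 and PUCHI fell by 1.83 and 1.81 (limma adjusted p = 6.61e-07 and 8.33e-09), while LBD29 did not pass. The signals of LBD16 in wild type were 832 and 683 without kinetin and 372 and 275 with 200 ng/ml. In ckh2-1 against wild type over 3 levels LBD29 fell by 1.26 and PUCHI by 1.14, both called by limma.

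Of 12 leaf mesophyll markers only RCA, Rubisco activase, was measured, and it moved with BGLU33 and BGLU47. Its signals in wild type were 339 and 376 without kinetin and 937 and 473 with 200 ng/ml, and in ckh2-1 they were 632 and 559 and then 1302 and 1058. The lowest RCA signal of any array was 306, so it was well above the filter in every group. RCA rose by 1.03 ± 0.19 with 200 ng/ml kinetin over 3 genotypes (limma adjusted p = 0.000483) and by 0.78 ± 0.19 in ckh2-1 against wild type over 3 levels (limma adjusted p = 0.0111, or 0.0517 without the replicate 2 array of wild type at 200 ng/ml). With TSA it rose by 1.11 ± 0.34 (limma adjusted p = 0.0375), where BGLU33 changed by -0.24 and BGLU47 by 0.04. The part of leaf-like tissue in the BGLU33 and BGLU47 values was not tested. No myrosin cell marker, of 5 listed, had a named probe set of its own.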

How the data were processed

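The deposited values are MAS5 signal intensities on a linear scale, 1 table of 22810 probe sets and 20 arrays, made with MAS5 per the submitters' processing notes. The sources used here give no MAS5 version, scaling target or detection calls. Groups came from the sample titles. The 64 control probe sets were left out. Values were taken as log2(signal + 27.39), 0.1 of the median trimmed mean (2% trimmed), without rescaling. Probe sets were kept if at least 1 group averaged above the 40th percentile of all log2 values (15469; 7277 left out). One fit of 10 group means was made with limma 3.58.1 in R 4.3.3 (lmFit, eBayes with a trend; 10 residual degrees of freedom). Benjamini-Hochberg adjustment was made over all probe sets of a comparison, with calls at an adjusted p-value under 0.05. There were 24 comparisons and 3 added after seeing the data. The procedure was tested on simulated data. The number of arrays limits the precision.

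Genes were named from the array's probe-to-gene table, and list entries were matched through the RefSeq gene table of assembly TAIR10.1. The 3 genes and all lists were chosen with earlier results of these data known. Named genes are the 3 genes, the 5 probe sets most like each, and list members that passed, at most 4 per direction. Alternatives tried were no filter, the replicate block, quantile normalization, arrays rescaled to a common trimmed mean, a pseudocount of 2.74 and each array left out, with and without the block. With 1 array left out, the lone array of its group is assumed to vary like the others. Sequences of the 3 genes were not used here.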

Additional observations from a re-analysis of the deposited data

Results flagged for a closer look

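In the response to 200 against 0 ng/ml kinetin, a mutant differed from wild type by limma for PUCHI and for the probe set of 2 family genes. BGLU44 was listed by the same rule, but no call is given for it. For BGLU44 the response in ckh1-1 minus that in wild type was -2.36 ± 0.52 (log2 ± SE), and -2.40 and -2.32 within replicate numbers 1 and 2. The ckh1-1 arrays were those in which the gene stands apart, so this is a description. For PUCHI, a callus and lateral root factor, the same difference was -1.43 ± 0.34 (limma adjusted p = 0.0434), with signals of 56.2 and 43.1 in ckh1-1 and 285 and 243 in wild type at 200 ng/ml. For the probe set of 2 family genes it was -3.49 ± 0.41 in ckh1-1 and -2.55 ± 0.41 in ckh2-1 (limma adjusted p = 5.51e-05 and 0.00500). In these interactions 1.22% (ckh1-1) and 0.362% (ckh2-1) of all probe sets passed.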

How the results depend on the processing

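The response of BGLU33 to 200 ng/ml kinetin over wild type and ckh1-1, and its difference between ckh2-1 and wild type at 25 ng/ml, kept direction and call under every alternative run (21 and 13). The averaged comparison was chosen after seeing the data. BGLU33 entered the test only through wild type at 200 ng/ml and ckh2-1 at 25 and 200 ng/ml, which these alternatives do not undo. Its other calls rested on few arrays. With an array left out, with or without the block, its response to 200 ng/ml ran from 0.64 to 1.59 in wild type and from 0.76 to 0.95 in ckh1-1, and 4 and 6 of 13 alternatives lost the call.

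Scaling decided BGLU47 and part of BGLU44. Replicate numbers were not taken to pair the samples, since deviations of same-numbered arrays correlated from -0.13 to 0.64 over 45 pairs of groups (median 0.20). That check cannot see an offset common to all probe sets, such as the 1.31-fold difference in scale, which the block takes up. With the replicate block, BGLU47 passed for 200 ng/ml over wild type and ckh1-1 (0.64, adjusted p = 0.00355), for ckh1-1 alone (0.63, 0.0289) and for ckh2-1 against wild type at 25 ng/ml (0.98, 0.00834), and BGLU44 passed for ckh2-1 against wild type over 3 levels (0.64, 0.00541) and without kinetin alone (1.06, 0.0197). BGLU33 in ckh1-1 passed at 25 ng/ml (0.86, 0.0264). The first 4 also passed with quantile normalization (0.71, 0.78, 0.96 and 0.66) and rescaled arrays (0.63, 0.63, 0.98 and 0.64). BGLU44 without kinetin and BGLU33 in ckh1-1 at 25 ng/ml passed under both settings too, with values given in the Results. BGLU47 in wild type at 200 ng/ml passed with quantile normalization (0.65), and its average over wild type and ckh1-1 passed with the smaller pseudocount (0.93, 0.0377). With an array left out, BGLU47 ran from 0.46 to 0.81 for that average, 0.29 to 0.99 for wild type, 0.33 to 0.94 for ckh1-1, 0.22 to 0.57 for 25 ng/ml over both, and 0.80 to 1.16 for ckh2-1 against wild type at 25 ng/ml. BGLU44 in ckh2-1 against wild type ran from 0.48 to 0.80.

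Signs turned only for changes that passed under no setting. BGLU47 with TSA was -0.056 with quantile normalization and ran from -0.30 to 0.39 with an array left out. With an array left out, BGLU44 ran from -0.33 to 0.58 (wild type, 200 ng/ml), -0.32 to 0.65 (wild type, 25 ng/ml), -0.79 to 0.027 (ckh2-1, 200 ng/ml), -0.35 to 0.10 (wild type and ckh2-1, 200 ng/ml) and -0.69 to 0.22 (TSA). The causes were not tested.

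Counts of called probe sets moved more than 1.5-fold. Under quantile normalization, rescaled arrays and the block they were 1384, 1374 and 1764 instead of 474 (wild type, 200 ng/ml), 4048, 4350 and 5145 instead of 1699 (ckh1-1, 200 ng/ml), 984, 927 and 1225 instead of 311 (ckh2-1 against wild type, 25 ng/ml), 4276, 4535 and 5338 instead of 2014 (200 ng/ml, wild type and ckh1-1), 795, 819 and 1006 instead of 189 (25 ng/ml, both), 4028, 4139 and 4887 instead of 1786 (200 ng/ml, wild type and ckh2-1), and 4627, 4654 and 5487 instead of 1696 (TSA). For ckh2-1 at 25 ng/ml they were 93, 107 and 146 instead of 14, 33 with the smaller pseudocount and 3 with no filter. For 25 ng/ml over 3 genotypes they were 1220, 1218 and 1580 instead of 363. With no filter 189, 104 and 241 were called for ckh2-1 against wild type, 25 ng/ml over both and over 3 genotypes. Among monolignol genes in ckh2-1 against wild type, 2 were higher and 1 lower under quantile normalization, rescaled arrays and the block, instead of 1 and 0. With 200 ng/ml over 3 genotypes 1 was lower with rescaled arrays and the block instead of 0. In ckh1-1, 1 instead of 2 was higher with no filter or the smaller pseudocount, and 2 instead of 1 were lower with rescaled arrays and the block. Of the 3 secondary wall genes in ckh2-1, 2 were lower with quantile normalization and the block, and 1 with rescaled arrays or the smaller pseudocount, instead of 0. The beta-glucosidase family had 13 tested members, the 3 genes included. With 200 ng/ml over 3 genotypes 5 were higher under quantile normalization, rescaled arrays and the block, instead of 2. With the block, 3 were higher with TSA instead of 1, and 6 in ckh2-1 against wild type instead of 3. Of the 10 others, 3 instead of 0 passed with the block for 200 ng/ml over 3 genotypes. PYK10 passed with the block in 4 of 27 comparisons, instead of 0. Counts were not recomputed with arrays left out.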

Other observations

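The 2 protein-coding genes on either side of each gene were looked at after the values of the 3 genes had been seen. AT4G21780 is separated from BGLU47 by 1 protein-coding gene in the RefSeq gene table of TAIR10.1, and its signals ran from 7.86 to 232. It entered the test through wild type with TSA, ckh2-1 at 25 ng/ml and the 3 groups with 200 ng/ml. It rose with 200 ng/ml kinetin in wild type (1.31 ± 0.27, limma adjusted p = 0.00836), in ckh1-1 (1.84 ± 0.27, limma adjusted p = 6.87e-05) and in ckh2-1 (1.94 ± 0.27, limma adjusted p = 5.31e-05). Over 3 genotypes the rise was 1.70 ± 0.16 (limma adjusted p = 7.59e-08). Of all probe sets, 3.06% passed with 200 ng/ml in wild type, 11% in ckh1-1, 8.27% in ckh2-1 and 19.8% over 3 genotypes. Against wild type over 3 kinetin levels, ckh2-1 differed by 0.40 ± 0.16 for AT4G21780 (limma adjusted p = 0.129). AT2G32850, next to BGLU33, and AT3G18060, separated from BGLU44 by 1 gene, changed by 0.22 ± 0.16 and 0.00 ± 0.19 with 200 ng/ml kinetin over 3 genotypes (limma adjusted p = 0.391 and 0.999).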
